A study of Mus musculus with 24 samples.

Results

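The thyroid glands of Xb130-/- mice aged 2 weeks (W2) were compared with those of Xb130+/+ mice of the same age, gene by gene. Xb130-/- mice lack XB130, a cytoplasmic adaptor protein encoded by Afap1l2. The Xb130-/- group held 4 male mice (LH7705, LH7707, LH7709 and LH7711 in the sample labels), and the Xb130+/+ group held 4 wild-type male mice (LH7704, LH7706, LH7708 and LH7710). Each mouse gave the RNA of its whole gland to 1 Affymetrix Mouse Gene ST 2.0 array, which reads probes along the whole transcript, so these are 8 of the 24 arrays of the series. The other 16 arrays come from the same genotypes at 4 weeks (W4) and at 3 months (W12 in the study), with 4 male mice in each group. No group received a treatment, and the paper calls the controls littermates. The paper describes the deletion of Xb130 as global, so it is not limited to the thyroid. The sources used here do not say which mice shared a litter and pair no mice.

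The members of the comparison are all probe sets with exactly 1 gene symbol, 23185 of 25206, each for a different gene. Values are the authors' log2 expression values, so a difference of 1 is a doubling. Each difference is the Xb130-/- mean minus the Xb130+/+ mean and has a standard error (SE), and a gene was called when its adjusted p from limma was under 0.05. The 8 arrays had medians between 7.09 and 7.17, and mice of 1 genotype had correlations between 0.991 and 0.995 over the probe sets. The number of arrays limits the precision of every value below.

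Thyrocytes, the cells that line the thyroid follicle, take up iodide, attach it to thyroglobulin and release thyroid hormone. Thyroid-stimulating hormone (TSH) from the pituitary drives these steps through its receptor Tshr and the second messenger cAMP. XB130 is known as an adaptor of tyrosine kinases and of phosphoinositide 3-kinase that also meets actin filaments. Xb130-/- mice are a model of congenital hypothyroidism, and the early weeks after birth are the time when their thyroid hormone is low and their TSH is high.

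Afap1l2 itself was read first, as a check of the labels. Its log2 values were 9.60, 9.31, 9.51 and 9.35 in Xb130-/- mice, against 11.05, 10.94, 10.93 and 10.87 in Xb130+/+ mice. The genotypes did not overlap, and the difference of -1.50 (SE 0.11, adjusted p = 1.13e-08 from limma) was close to those at W4 (-1.51) and W12 (-1.35). The sources used here do not say which exons the probes of this gene cover, so the remaining signal in Xb130-/- mice has no reading as a transcript level of intact Xb130. Among the 25 measured genes on each side of Afap1l2 on chromosome 19, 4 were called higher and 6 lower. That is 10 of 50 neighbours, where 7.44% of all genes were called in either direction, 4.17% of them higher and 3.28% lower. Gfra1, a co-receptor of the growth factor GDNF and the 8th gene on one side, had the largest difference at 1.75 (SE 0.20, adjusted p = 7.21e-06 from limma). Plekhs1, a gene for a pleckstrin homology domain protein on the other side, was 1.18 higher, and Pnliprp2, a pancreatic lipase-related gene, fell by 0.81. Without LH7704 the count of lower neighbours was 3, and it was 4 or 5 without any 1 of the other mice. The genetic background around the deleted gene was not tested.

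Defining thyrocyte markers were present in every gland. The 11 thyrocyte markers averaged 11.542 to 11.605 in the 4 Xb130-/- mice and 11.069 to 11.233 in the 4 Xb130+/+ mice. Of the 11, 5 were called higher (45.5%, against 4.17% of all genes). In whole glands, fewer cells of a type and less RNA per cell cannot be told apart. Thymocyte markers (24 measured genes of T cell precursors in the thymus, which lies near the thyroid) varied between mice of 1 genotype. Their mean was 6.116, 7.805, 7.843 and 7.311 in the Xb130-/- mice LH7705, LH7707, LH7709 and LH7711, against 6.212, 6.125, 6.111 and 6.493 in the Xb130+/+ mice LH7704, LH7706, LH7708 and LH7710. LH7705 thus lay within the Xb130+/+ range and the other 3 Xb130-/- mice above it, while 0 of these 24 markers was called. Skeletal muscle markers averaged 7.567 to 9.485 in Xb130-/- mice and 7.202 to 9.116 in Xb130+/+ mice, with 0 of 19 called. Adipocyte markers averaged 9.056 to 9.885 in Xb130-/- mice and 9.68 to 10.2 in Xb130+/+ mice. Of the 14, 1 was lower, Fabp4 (7.14%, against 3.28% of all genes). The median difference of this list was -0.595, and only LH7711 (9.885) lay above the lowest Xb130+/+ mouse, LH7710 (9.68). The part of fat tissue in the results was not tested. Erythroid, macrophage and parathyroid lists had no called gene. Salivary gland markers averaged 7.671 to 7.834 in Xb130-/- mice and 6.805 to 7.208 in Xb130+/+ mice. Of the 11, 3 were higher, Dcpp1, Dcpp2 and Aqp5 (27.3%, against 4.17% of all genes). Cartilage markers averaged 7.222 to 7.324 in Xb130-/- mice and 6.94 to 7.085 in Xb130+/+ mice, with 2 of 13 higher (15.4%). The means of these 2 lists did not overlap between the genotypes, but their median differences were only 0.038 and 0.018. Most members of either list were not called, and the part of these 2 lists in the results was not tested. Thymic epithelium markers averaged 8.45 to 9.653 in Xb130-/- mice and 8.038 to 8.572 in Xb130+/+ mice, with 2 of 10 higher (20%).

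Of the 23185 genes, 1726 were called at W2, 966 higher and 760 lower in Xb130-/- mice. At least 2-fold differences were found for 152 of the higher and 47 of the lower genes, and the median absolute difference of called genes was 0.469. All 4 Xb130-/- values lay outside the Xb130+/+ range, on 1 side, for 2871 genes (12.4%), above it for 1450 (6.25%) and below it for 1421 (6.13%). The median difference over all genes was -0.025. With the arrays shifted to the same median the balance of directions turned, with 818 higher and 875 lower genes (48.3% of calls higher, against 56% as deposited). Without LH7704, LH7706 or LH7709 the count of lower genes was 502, 506 or 506. Genes of energy metabolism (459 measured in the lists of oxidative phosphorylation, fatty acid and coenzyme metabolism and related processes) were called higher in 12 cases and lower in 91. Outside these lists, 954 genes were higher and 669 lower.

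To separate genes from the spread of thymocyte markers between mice, each gene was fitted again with the mean of the thymocyte list as a covariate. A gene was taken as free of thymocyte-linked spread when it was called in both fits in 1 direction, when its slope on that mean had an unadjusted p of at least 0.05, and when it was in neither the energy lists nor the thymocyte list. This held for 707 higher and 421 lower genes, together 1128 of all genes tested (4.87%). With the W2 arrays fitted alone the counts were 105 higher and 31 lower, with thymocyte, muscle and adipocyte means as covariates 310 and 122, and without LH7705 552 and 275. In 673 of the 707 and 373 of the 421 the genotypes did not overlap, where 12.4% of all genes did not. These genes were chosen by the same difference, so their separation is a description. Of the genes outside the energy lists, 416 were called without the covariate and not with it, and 116 had a slope p under 0.05. LH7710, the Xb130+/+ mouse with the highest thymocyte mean of its genotype, was the mouse of that genotype nearest the Xb130-/- values for 352 of the 707 higher (49.8%) and 205 of the 421 lower genes (48.7%). Of the Xb130-/- mice, LH7705, with the lowest thymocyte mean, was nearest the Xb130+/+ values for 303 of the 707 higher genes (42.9%). LH7709, with the highest, was nearest for 58 (8.2%). For the 421 lower genes LH7705 was nearest in 117 (27.8%), LH7709 in 98 (23.3%) and LH7711 in 141 (33.5%). The rest of the report gives the members of this set first, and says so where a called gene named below is not in it.

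The 15 largest increases in the set were differences of 2.05 to 3.77. Adm2, which encodes the vasodilator peptide intermedin, had log2 values of 11.18, 11.56, 11.53 and 11.43 in Xb130-/- mice, against 7.66, 7.75, 7.88 and 7.31 in Xb130+/+ mice, a difference of 3.77 (SE 0.23, adjusted p = 3.02e-09 from limma). Gpr37, an orphan receptor best known from the nervous system, had values of 8.06, 8.20, 8.56 and 8.61 in Xb130-/- mice, against 5.44, 5.77, 5.35 and 5.86 in Xb130+/+ mice. The difference was 2.75 (SE 0.20, adjusted p = 1.13e-08 from limma), with every Xb130-/- mouse more than 2 units above every Xb130+/+ mouse. Foxf2, a forkhead transcription factor of mesenchyme, was at 8.23, 8.85, 8.64 and 8.38 in Xb130-/- mice, against 5.88, 5.96, 6.14 and 6.18 in Xb130+/+ mice, a difference of 2.49 (SE 0.17, adjusted p = 9.23e-09 from limma). For Foxf2 the mice of each genotype lay within 1 unit of each other, and the gap between the genotypes was wider. Grpr, the receptor of gastrin-releasing peptide, was at 8.90, 9.42, 9.31 and 9.20 in Xb130-/- mice, against 7.36, 6.90, 7.20 and 6.88 in Xb130+/+ mice and differed by 2.12 (SE 0.18, adjusted p = 8.5e-08 from limma). Acsbg1, an acyl-CoA synthetase of very long chain fatty acids, differed by 3.06, Cnmd, the cartilage glycoprotein chondromodulin, by 2.99, and Cyp27b1, which makes the active form of vitamin D, by 2.98. Dcpp2 and Dcpp1, genes of demilune cell and parotid proteins of saliva, differed by 3.37 and 2.54, and near-identical copies in that family can share probes. Both are on the salivary gland list and Cnmd is on the cartilage list given above. The other members were Mcpt4, Dapl1, Cpa3, C2cd4b, Cpa4 and Kcne1, a subunit of potassium channels, with differences from 2.05 to 2.41.

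**Figure D1:**
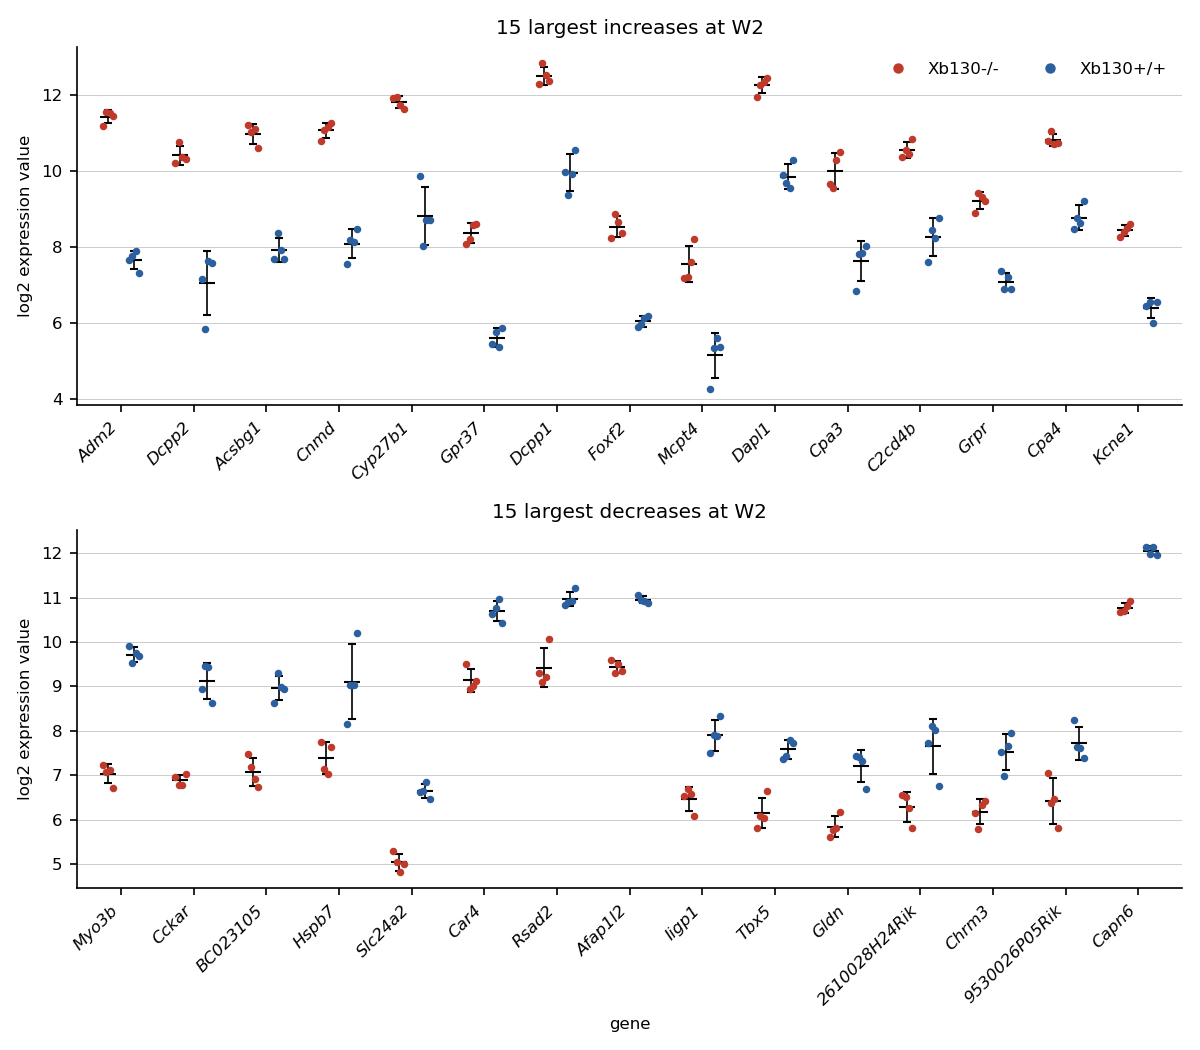
Log2 expression values at W2 of the 15 largest increases (upper panel) and the 15 largest decreases (lower panel) among genes called, free of thymocyte-linked spread and without overlap. Each point is 1 mouse (Xb130-/- left, Xb130+/+ right of each pair), and bars are the mean and SD of 4 mice. Adm2 lies between 11.18 and 11.56 in Xb130-/- mice and between 7.31 and 7.88 in Xb130+/+ mice, and Myo3b between 6.72 and 7.23 in Xb130-/- mice and between 9.52 and 9.91 in Xb130+/+ mice.

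The 15 largest decreases were differences of -2.68 to -1.28. Myo3b, a class III myosin that carries a kinase domain, was at 7.23, 7.07, 7.12 and 6.72 in Xb130-/- mice, against 9.91, 9.52, 9.76 and 9.68 in Xb130+/+ mice, a difference of -2.68 (SE 0.16, adjusted p = 1.79e-09 from limma). Cckar, the receptor of cholecystokinin, was at 6.96, 6.77, 6.78 and 7.02 in Xb130-/- mice, against 8.94, 9.46, 9.43 and 8.64 in Xb130+/+ mice. It fell by 2.23 (SE 0.23, adjusted p = 1.23e-06 from limma), and the muscarinic acetylcholine receptor Chrm3 fell by 1.35. Car4, a carbonic anhydrase anchored to the cell surface, was at 9.52, 8.93, 9.01 and 9.11 in Xb130-/- mice, against 10.62, 10.77, 10.97 and 10.43 in Xb130+/+ mice, a difference of -1.55 (SE 0.13, adjusted p = 7.43e-08 from limma). Hspb7, a small heat shock protein of muscle, was at 7.75, 7.14, 7.04 and 7.64 in Xb130-/- mice, against 8.16, 9.03, 9.03 and 10.21 in Xb130+/+ mice and differed by -1.71 (SE 0.34, adjusted p = 0.00226 from limma). Its Xb130+/+ values spread over 2 units, and LH7704 lay nearest to the Xb130-/- mice. Tbx5, a T-box transcription factor of heart and forelimb, fell by 1.43, Slc24a2, a sodium, calcium and potassium exchanger, fell by 1.61, and Capn6, a calpain without proteolytic activity, fell by 1.28.

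The imprinted region between Dlk1 and Dio3 on chromosome 12 held 26 called transcripts, all higher in Xb130-/- mice. This region carries protein-coding genes expressed from the paternal chromosome and long noncoding RNAs expressed from the maternal one (Meg3, Rian and Mirg), whose transcripts contain clusters of small nucleolar RNAs (snoRNAs) and microRNAs. It is known for high expression in the fetus and a decline after birth. The region was chosen after the W2 values were seen, so its counts are a description with no test. Of 66 measured transcripts, 26 were higher (39.4%, against 4.17% of all genes) and 0 lower, and 21 of the 26 were free of thymocyte-linked spread. In 25 of the 66, called or not, all 4 Xb130-/- mice lay above all 4 Xb130+/+ mice, and in 0 below. Over all genes these shares were 6.25% above and 6.13% below. The median difference over the 66 was 0.353. Among the 50 measured genes beside the region, 25 on each side, 6 were higher (12%, against 4.17% of all genes) and 3 lower. Over all genes 3.28% were lower.

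The called transcripts included 16 of 51 microRNA genes, 5 of 6 snoRNA genes, 4 of 6 long noncoding RNAs and 1 of 3 protein-coding genes. Of 478 microRNA genes measured elsewhere in the genome, 1 was higher and 5 lower, and of 100 snoRNA genes elsewhere 0 were higher and 3 lower. The microRNA genes with the largest differences were Mir300, Mir453, Mir369, Mir377, Mir485 and Mir323 (1.69, 1.18, 1.17, 1.17, 1.11 and 1.01), and their mature microRNAs are shown because the seed (bases 2 to 8, in capitals) sets which messenger RNAs a microRNA can pair with. Sequences are from RefSeq (GRCm38.p6), written 5′ to 3′, and all lie on the plus strand of chromosome 12.
mmu-miR-300-3p (chr12:109724363-109724384): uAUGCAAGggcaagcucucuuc
mmu-miR-300-5p (chr12:109724318-109724339): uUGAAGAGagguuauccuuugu
mmu-miR-453 (chr12:109735669-109735692): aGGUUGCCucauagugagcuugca
mmu-miR-369-3p (chr12:109743466-109743486): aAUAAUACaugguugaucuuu
mmu-miR-369-5p (chr12:109743431-109743452): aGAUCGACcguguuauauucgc
mmu-miR-377-3p (chr12:109740553-109740574): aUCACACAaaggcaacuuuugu
mmu-miR-377-5p (chr12:109740515-109740536): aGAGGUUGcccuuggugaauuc
mmu-miR-485-3p (chr12:109734946-109734967): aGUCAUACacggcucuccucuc
mmu-miR-323-3p (chr12:109712558-109712578): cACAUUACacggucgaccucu
mmu-miR-323-5p (chr12:109712523-109712544): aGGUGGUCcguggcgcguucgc
All 16 called microRNA genes were found in the RefSeq table, with 29 mature sequences and 29 different seeds, so no seed was shared among them. Of the 6 genes with sequences shown, Mir323 is not in the set free of thymocyte-linked spread. The arrays read probe sets assigned to the microRNA genes, and levels of mature microRNAs were not measured.

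Rian, a long noncoding RNA that hosts snoRNAs, had log2 values of 9.80, 9.64, 9.44 and 9.93 in Xb130-/- mice, against 8.27, 8.50, 8.59 and 9.0 in Xb130+/+ mice. Its difference was 1.11 (SE 0.17, adjusted p = 0.00017 from limma), with all 4 Xb130-/- mice above all 4 Xb130+/+ mice. Meg3, a long noncoding RNA at the start of the maternal cluster, was at 10.11, 9.50, 9.85 and 10.21 in Xb130-/- mice, against 9.15, 8.91, 9.04 and 9.19 in Xb130+/+ mice, a difference of 0.85 (SE 0.16, adjusted p = 0.00139 from limma). Mirg, the host transcript of the distal microRNA cluster, was at 8.33, 8.25, 8.30 and 8.56 in Xb130-/- mice, against 7.67, 7.54, 7.63 and 7.85 in Xb130+/+ mice, a difference of 0.69 (SE 0.11, adjusted p = 0.000224 from limma). Of these 3 host transcripts, LH7710 was the highest Xb130+/+ mouse each time. Mir300 had values of 5.48, 4.81, 6.0 and 5.77 in Xb130-/- mice, against 3.64, 3.88, 3.63 and 4.13 in Xb130+/+ mice, a difference of 1.69 (SE 0.25, adjusted p = 9.27e-05 from limma), the largest in the region. The snoRNA gene DQ267100 was at 8.38, 8.18, 8.36 and 8.24 in Xb130-/- mice, against 6.98, 6.76, 6.82 and 7.53 in Xb130+/+ mice, a difference of 1.27 (SE 0.14, adjusted p = 4.42e-06 from limma), and 4 other snoRNA genes rose by 0.54 to 1.38, the smallest of these increases outside the set free of thymocyte-linked spread. Copies of these snoRNA genes resemble each other, so their probe sets may share signal.

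Dlk1, which encodes a ligand-like relative of the Notch ligands and is expressed from the paternal chromosome, was at 8.0, 8.09, 8.77 and 9.05 in Xb130-/- mice, against 7.26, 7.29, 7.61 and 8.16 in Xb130+/+ mice. Here LH7710 overlapped the Xb130-/- range, and the difference of 0.90 (SE 0.24, adjusted p = 0.0242 from limma) was not called with the thymocyte covariate (adjusted p = 0.0753). Rtl1, a gene derived from a retrotransposon, differed by 0.33, and Dio3, the deiodinase that inactivates thyroid hormone, by -0.05; neither was called. The mean of the 26 called transcripts was 6.704, 6.347, 6.807 and 6.842 in the Xb130-/- mice LH7705, LH7707, LH7709 and LH7711, against 5.673, 5.629, 5.733 and 5.95 in the Xb130+/+ mice LH7704, LH7706, LH7708 and LH7710. These transcripts were chosen by their W2 values, so the gap is a description. Over all 66 transcripts the mean was 5.809, 5.585, 5.792 and 5.877 in the same Xb130-/- mice, against 5.332, 5.256, 5.27 and 5.377 in the same Xb130+/+ mice. Many of these probe sets were dim: 42 of the 66, and 15 of the 26 called, had a mean over all arrays under 5.66, the 30th percentile of all genes, and signal over background is not known for them.

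**Figure D2:**
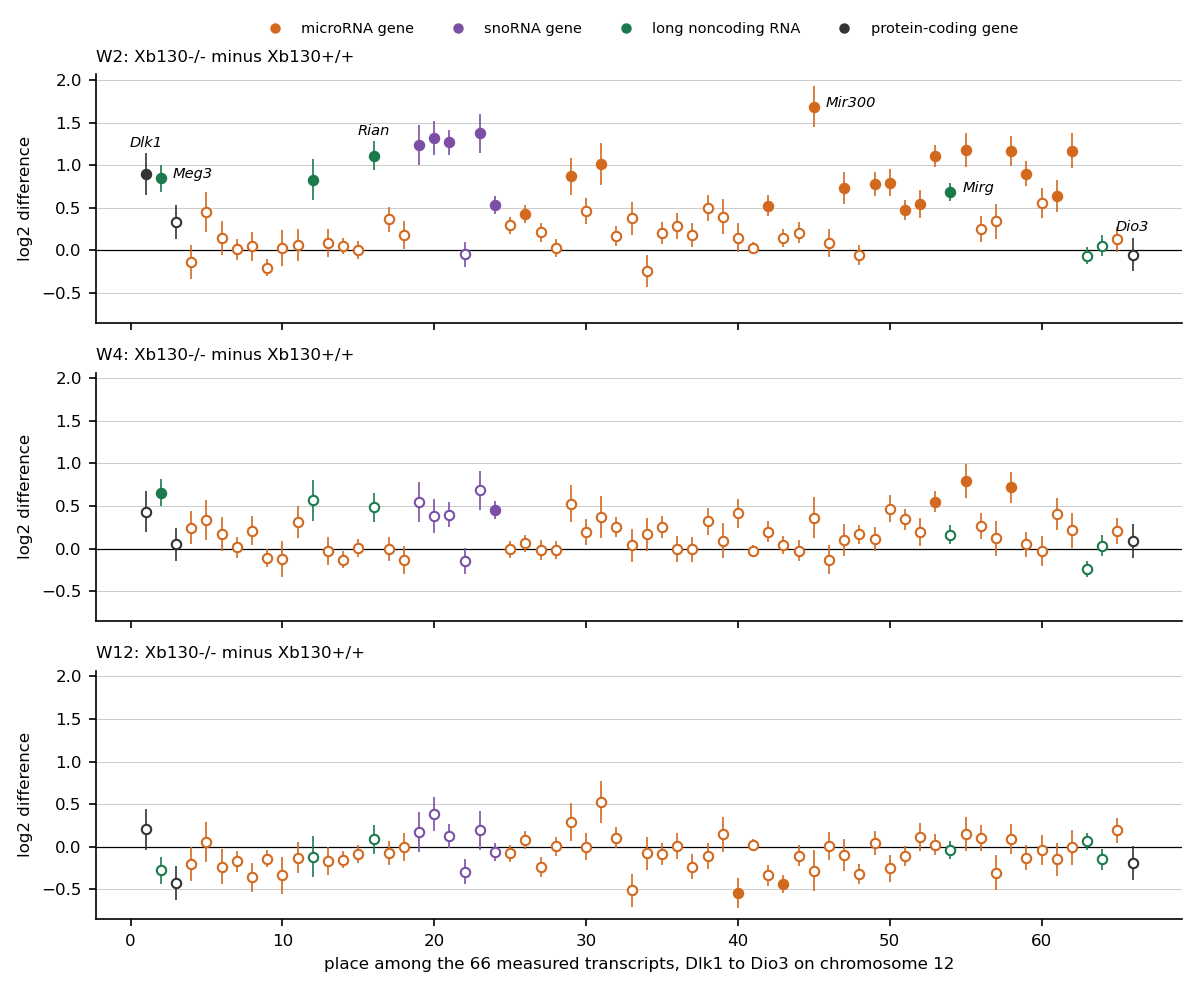
Log2 difference (Xb130-/- minus Xb130+/+) with SE for the 66 measured transcripts between Dlk1 and Dio3 in their order along chromosome 12, at W2, W4 and W12. Filled points were called (adjusted p under 0.05 from limma) and open points were not. At W2 26 points are filled, all above 0, at W4 5, all above 0, and at W12 2, both below 0.

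At W4 5 of the 66 transcripts were called higher and 0 lower, with a median difference of 0.17, and at W12 0 were higher and 2 lower, with a median of -0.081. The background at W4 was 5.08% of genes higher and 4.35% lower, and at W12 9.42% higher and 10.5% lower. The test of the W2 difference against the W12 difference was passed by 13 of the 66 transcripts, where 2.27% of all genes passed it. The test against the W4 difference was passed by 0 of the 66, and by only 8 of all 23185 genes. Rian differed by 0.48 at W4 and 0.09 at W12, and the W2 difference was larger than that at W12 (adjusted p = 0.0255 from limma). Meg3 differed by 0.65 at W4 and -0.28 at W12 (adjusted p = 0.00726 from limma for W2 against W12). The means were lower at the later ages in both genotypes, which was not tested. The mean of the 26 transcripts was 5.8 to 6.013 in Xb130-/- mice and 5.34 to 5.634 in Xb130+/+ mice at W4, and 5.298 to 5.438 in Xb130-/- mice and 5.33 to 5.426 in Xb130+/+ mice at W12.

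Other imprinted genes were looked at with a list of 48 measured genes that was written after the W2 values were seen and that includes genes of the region above. On it 6 genes were higher and 3 lower, and 4 of the 6 (Dlk1, Meg3, Rian and Mirg) lie in the region above. Of the 42 outside the region, 2 were higher (4.76%, against 4.17% of all genes) and 3 lower. Igf2, the fetal growth factor whose gene lies next to H19, was at 10.27, 10.42, 10.41 and 11.16 in Xb130-/- mice, against 9.05, 9.25, 9.27 and 10.02 in Xb130+/+ mice, a difference of 1.17 (SE 0.25, adjusted p = 0.00389 from limma). LH7711 was the highest Xb130-/- mouse and LH7710 the highest Xb130+/+ mouse. The difference of Igf2 was 0.31 at W4 and -0.09 at W12. H19, a maternally expressed noncoding RNA, differed by 1.03 without being called (adjusted p = 0.3 from limma). Mest, expressed from the paternal chromosome, was 0.84 higher, while Phlda2, Plagl1 and Impact were lower, with differences of -0.55, -0.39 and -0.22, and Impact is not in the set free of thymocyte-linked spread.

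Among genes that make thyroid hormone, those called higher serve iodide transport and TSH reception. Of 9 measured genes of hormone synthesis, 3 were called higher (33.3%, against 4.17% of all genes) and 0 lower, with a median difference of 0.263. Slc5a5, the sodium iodide symporter that brings iodide into the thyrocyte, was at 12.87, 12.90, 12.94 and 12.85 in Xb130-/- mice, against 11.24, 11.45, 11.27 and 10.65 in Xb130+/+ mice, a difference of 1.74 (SE 0.21, adjusted p = 1.01e-05 from limma). The Xb130-/- mice lay close together, and LH7710 was the lowest Xb130+/+ mouse. Slc26a4, the apical anion exchanger pendrin, was 1.32 higher and Tshr 0.59 higher. Tg, the thyroglobulin gene, differed by -0.07, the oxidase genes Duox1 and Duox2 by 0.47 and 0.13, their maturation factors Duoxa1 and Duoxa2 by 0.04 and 0.26, and the iodotyrosine deiodinase Iyd by 0.11, and none of these 6 was called. Tg averaged 13.92 in Xb130-/- mice and 13.99 in Xb130+/+ mice, near the highest value on these arrays (14).

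In the list of hormone release, conversion and receptors (25 genes), 3 were higher (12%) and 3 lower (12%). Of all genes, 4.17% were higher and 3.28% lower. Dio1, the deiodinase that makes active hormone, was 0.47 higher, while Slc16a10, a transporter of thyroid hormone and aromatic amino acids, fell by 0.75 and the hormone receptor Thrb fell by 0.54. Of 12 genes known to respond to thyroid hormone in other tissues, 1 was higher (8.33%) and 5 lower (41.7%). Of these 5, only 1 was in the set free of thymocyte-linked spread, which leaves out genes of the energy lists. Klf9, a transcription factor among the 12, fell by 0.51 and Thrsp, a gene of fat synthesis that is on the energy lists, fell by 1.98. Among 21 thyroid transcription factors and related genes, Glis3, which is needed for hormone synthesis in postnatal mice, was 0.76 higher and Eya1 fell by 0.73. Gata6 was 0.47 higher with overlapping groups and is not in the set free of thymocyte-linked spread.

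Members of the cAMP pathway were called higher in 8 of 55 cases (14.5%, against 4.17% of all genes) and lower in 1. Pde4d and Pde1c, phosphodiesterases that break down cyclic nucleotides, were 1.0 and 0.86 higher, and Adcy3, an adenylyl cyclase that makes cAMP, was 0.75 higher. Adcy8, a calcium-stimulated adenylyl cyclase, was 1.89 higher but is not in the set free of thymocyte-linked spread. Sik1, a kinase gene induced by cAMP, was 0.45 higher, and the soluble cyclase gene Adcy10 fell by 0.62. Of 40 immediate-early genes, which are transcribed within minutes of a stimulus, 13 were higher (32.5%) and 1 lower, with a median difference of 0.23. Dusp2, a phosphatase that inactivates MAP kinases, was 0.89 higher, Gadd45a, a stress-response gene, 0.56 and Dusp1 0.54. Nr4a3, Egr2 and Fosl1, transcription factors of this group, were 0.94, 0.71 and 0.62 higher but did not keep their call with the thymocyte covariate or had a slope on it. Fos differed by -0.18, Egr1 by 0.44 and Jun by -0.05, and none of the 3 was called. The count of higher immediate-early genes was 4 without LH7709, 5 without LH7704, 7 without LH7705, LH7706 or LH7707 and 8 without LH7708, and it was 8 with the thymocyte covariate.

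The interferon-response list held more lower than higher genes. Of 78 measured genes that cells switch on when interferon reaches them, 22 were lower (28.2%, against 3.28% of all genes), 3 higher (3.85%, against 4.17%) and 53 not called in Xb130-/- mice. The median difference was -0.211, and 15 of the 22 were free of thymocyte-linked spread. The mean of the list was 7.392 to 7.559 in Xb130-/- mice and 7.655 to 7.73 in Xb130+/+ mice, without overlap. Without the Xb130-/- mouse LH7707, or without the Xb130+/+ mouse LH7708, the count of lower genes was 14. It was 6 with thymocyte, muscle and adipocyte means as covariates and 2 with LH7705 as the only Xb130-/- mouse.

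Rsad2, which encodes the antiviral enzyme viperin, had log2 values of 9.29, 9.10, 9.21 and 10.06 in Xb130-/- mice, against 10.83, 10.89, 10.93 and 11.21 in Xb130+/+ mice. LH7711 was the highest Xb130-/- mouse and still below every Xb130+/+ mouse, and the difference was -1.55 (SE 0.19, adjusted p = 1.36e-05 from limma). Iigp1, an immunity-related GTPase, was at 6.53, 6.69, 6.58 and 6.08 in Xb130-/- mice, against 7.49, 7.90, 7.89 and 8.34 in Xb130+/+ mice, a difference of -1.44 (SE 0.23, adjusted p = 0.000349 from limma). Ifit1, which binds viral RNA, was at 7.80, 7.17, 7.50 and 6.89 in Xb130-/- mice, against 8.57, 8.71, 8.45 and 7.70 in Xb130+/+ mice. In Ifit1 the Xb130+/+ mouse LH7710 lay below the highest Xb130-/- mouse, and the difference was -1.02 (SE 0.20, adjusted p = 0.00264 from limma). Smaller decreases were those of Rtp4, a receptor transporter gene (-0.90), Ifi27 (-0.79), Usp18, which removes the modifier ISG15 (-0.74), the guanylate-binding proteins Gbp3 and Gbp7 (-0.67 and -0.56), Irf7, the transcription factor of the late interferon response (-0.51), and Xaf1 (-0.44). The 3 higher genes were Oas1d, a member of the oligoadenylate synthetase family (1.61), Gbp8 (1.31) and Irf8 (0.30), and of these only Oas1d was free of thymocyte-linked spread. Chemokine genes that interferon also induces were higher: Cxcl10 was at 8.77, 8.81, 8.96 and 8.87 in Xb130-/- mice, against 7.30, 7.57, 7.73 and 7.79 in Xb130+/+ mice, a difference of 1.26 (SE 0.16, adjusted p = 2.79e-05 from limma), and Cxcl11 was 0.84 higher.

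Factors of the interferon response bind the motif GAAANNGAAA, in which N is any base. It was searched on both strands of the 250 bases before each gene's start in RefSeq (GRCm38.p6), and no other motif was searched. A gene counted as holding it when any of its promoter windows did, and the tested genes had 21141 windows. It was found in 27 of the 57 list genes with a promoter in that table (47.4%). Among all tested genes with a promoter it was found in 594 of 17452 (3.4%). By call, 7 of 16 lower genes held it (43.8%), 0 of 1 higher gene and 20 of 40 genes that were not called (50%). The share in lower genes was thus not above that in genes that were not called. Among genes with a promoter in the set free of thymocyte-linked spread, 3.22% of 528 higher and 4.29% of 326 lower genes held it. The windows of the lower genes with a match are shown, with the match nearest the gene's start in capitals and 12 bases on each side, on the strand of the gene.
Rsad2 (chr12:26456551-26456584, minus strand): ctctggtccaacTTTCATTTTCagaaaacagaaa
Ifit1 (chr19:34640792-34640825, plus strand): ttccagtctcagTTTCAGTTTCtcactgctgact
Ifi203 (chr1:173942506-173942539, minus strand): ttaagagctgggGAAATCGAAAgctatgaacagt
Gbp3 (chr3:142559993-142560026, plus strand): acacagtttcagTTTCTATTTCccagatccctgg
Gbp7 (chr3:142530271-142530304, plus strand): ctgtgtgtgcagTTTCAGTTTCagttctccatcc
Bst2 (chr8:71537575-71537608, minus strand): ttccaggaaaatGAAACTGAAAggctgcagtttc
Irgm1 (chr11:48871423-48871456, minus strand): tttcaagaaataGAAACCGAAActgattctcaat
Ifit1, Gbp3, Bst2 and Irgm1 had 2 matches each, of which 1 is marked. A match is a description of these letters and not evidence of binding.

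**Figure D3:**
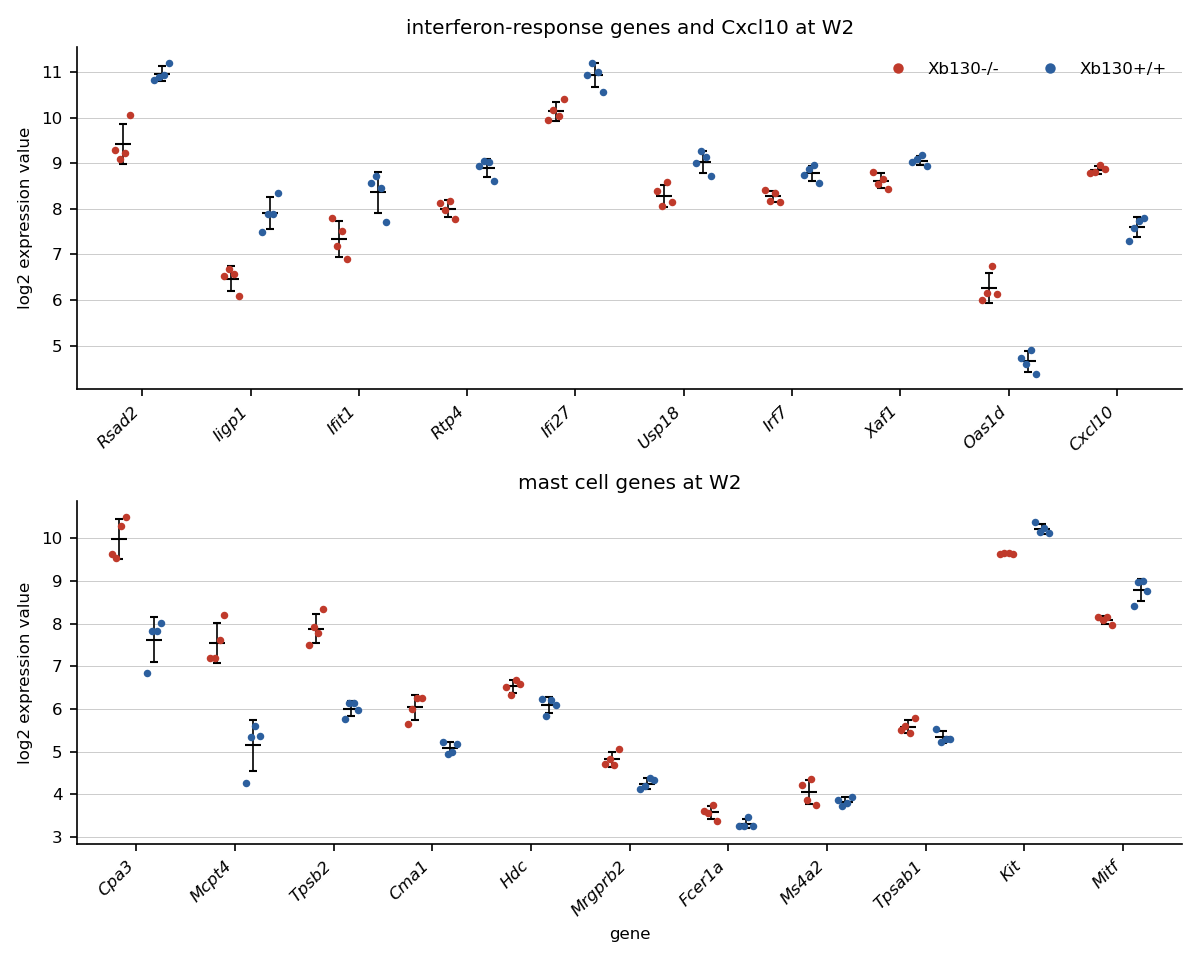
Log2 expression values at W2 of interferon-response genes and Cxcl10 (upper panel) and of mast cell genes (lower panel). Each point is 1 mouse (Xb130-/- left, Xb130+/+ right of each pair), and bars are the mean and SD of 4 mice. Rsad2 lies between 9.10 and 10.06 in Xb130-/- mice and between 10.83 and 11.21 in Xb130+/+ mice, and Cpa3 between 9.54 and 10.50 in Xb130-/- mice and between 6.84 and 8.02 in Xb130+/+ mice.

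Genes of 3 mast cell proteases were higher in every Xb130-/- mouse. Cpa3, the carboxypeptidase of mast cell granules, was at 9.64, 9.54, 10.29 and 10.50 in Xb130-/- mice, against 6.84, 7.82, 7.83 and 8.02 in Xb130+/+ mice, a difference of 2.36 (SE 0.29, adjusted p = 1.32e-05 from limma). Mcpt4, a chymase of connective tissue mast cells, was at 7.19, 7.19, 7.61 and 8.20 in Xb130-/- mice, against 4.26, 5.34, 5.60 and 5.37 in Xb130+/+ mice, a difference of 2.41 (SE 0.30, adjusted p = 1.79e-05 from limma). Tpsb2, a tryptase, was at 7.51, 7.92, 7.78 and 8.34 in Xb130-/- mice, against 5.77, 6.15, 6.14 and 5.98 in Xb130+/+ mice, a difference of 1.88 (SE 0.22, adjusted p = 6.07e-06 from limma). In all 3 genes the lowest Xb130-/- mouse lay more than 1 unit above the highest Xb130+/+ mouse. The list of neutrophil and mast cell markers (12 genes) averaged 5.611 to 6.045 in Xb130-/- mice and 4.913 to 5.173 in Xb130+/+ mice. On it 5 were called, all higher (41.7%, against 4.17% of all genes) and all of them mast cell genes. The other 2 were Cma1 at 0.95 and Fcer1a at 0.27, the second not in the set free of thymocyte-linked spread.

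A longer list of 25 mast cell genes was written after the W2 values were seen. On it 7 genes were higher (28%, against 4.17% of all genes), 2 lower and 16 not called. Means of Fcer1a (3.58 in Xb130-/- and 3.31 in Xb130+/+ mice) and Mrgprb2 (4.81 and 4.25) were low, and signal over background is not known. Hdc, the enzyme that makes histamine, was 0.44 higher and Mrgprb2, a receptor of connective tissue mast cells, 0.56 higher. The lower genes were Kit, the receptor of stem cell factor, which other cells of the gland may also carry (-0.58), and the transcription factor Mitf (-0.70). Ms4a2, the beta chain of the IgE receptor, and Tpsab1, another tryptase, differed by 0.22 and 0.24 and were not called. On the same list 7 genes were higher at W4 and 6 at W12, where 5.08% and 9.42% of all genes were. The number of mast cells was not measured.

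**Figure D4:**
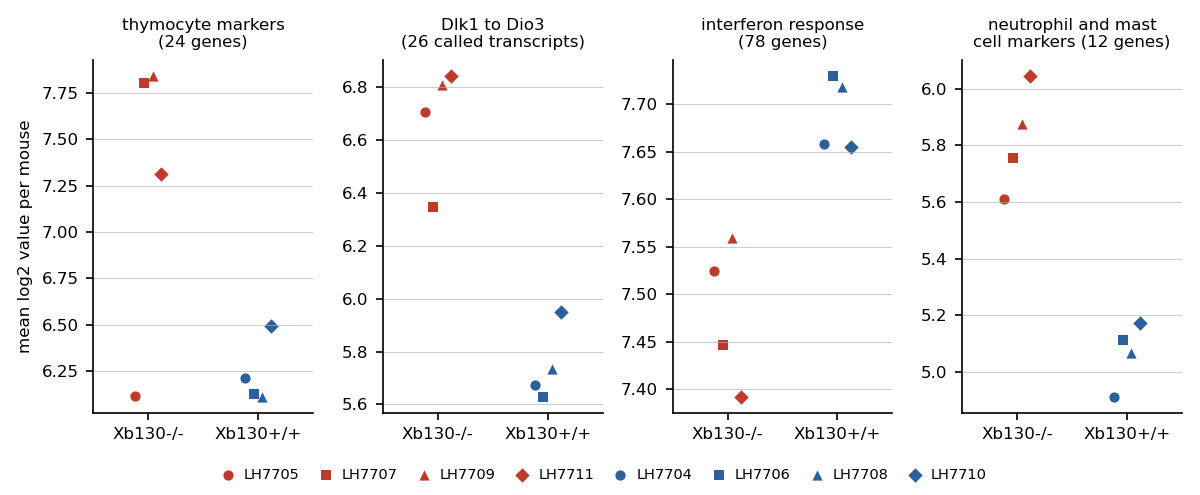
Mean log2 value per mouse at W2 of the thymocyte markers, of the 26 called transcripts between Dlk1 and Dio3, of the interferon-response list and of the neutrophil and mast cell markers, for each of the 4 Xb130-/- mice and the 4 Xb130+/+ mice. LH7705 has a thymocyte mean of 6.116, within the Xb130+/+ range, while the genotypes do not overlap in the other 3 panels. The 26 transcripts were chosen by their difference, so their separation is a description.

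Foxj1, the transcription factor that switches on motile cilia, the beating projections of airway and ductal cells, was at 7.69, 7.76, 7.96 and 7.86 in Xb130-/- mice, against 6.51, 6.63, 6.97 and 6.47 in Xb130+/+ mice, a difference of 1.17 (SE 0.12, adjusted p = 1.02e-06 from limma). The axonemal dynein heavy chains Dnah11 and Dnah5 were 1.47 and 1.36 higher, and Ak7, an adenylate kinase of cilia, 1.80. In a list of 84 genes of motile cilia, written after the W2 values were seen, these 4 and Tekt1 and Cfap206 were higher (7.14%, against 4.17% of all genes), 0 were lower and 78 were not called, with a median of -0.025, the same as over all genes. Airway and esophageal markers, which contain ciliated cell genes, averaged 6.689 to 7.242 in Xb130-/- mice and 6.478 to 6.662 in Xb130+/+ mice. Of the 14, 3 were higher (21.4%), Foxj1, Dnah5 and Tekt1. The part of tissue next to the gland in these values was not tested.

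In the Notch and hedgehog list, 10 of 32 genes were higher (31.2%, against 4.17% of all genes) and 0 lower, with a median difference of 0.129. The count of 10 was 6 with the W2 arrays fitted alone and 1 with thymocyte, muscle and adipocyte means as covariates. Hhip, which binds hedgehog ligands, was 1.53 higher, and the Notch target genes Hey1, Heyl and Hes1 were 0.69, 0.61 and 0.44 higher. In the Wnt list 12 of 65 were higher (18.5%) and 3 lower (4.62%, against 3.28% of all genes). Among them were the ligands Wnt11 and Wnt4 (0.74 and 0.67), the receptor Fzd1 (0.68) and the secreted inhibitor Dkk2 (0.82), while Axin2, a feedback target of the pathway, fell by 0.23. In the TGF-beta and BMP list 11 of 63 were higher (17.5%) and 3 lower (4.76%), with the ligand Gdf11 and the inhibitory Smad7 both 0.78 higher, the binding protein Fstl3 0.64 higher and the ligand Gdf10 lower (-0.66).

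Growth factors and their receptors were called higher in 10 of 86 cases (11.6%, against 4.17% of all genes) and lower in 4 (4.65%). Nrg1, a ligand of the ERBB receptors, was 1.27 higher, as were the EGF receptor ligands Btc (0.78) and Ereg (0.73) and the receptor Egfr (0.66). Met, the receptor of hepatocyte growth factor, fell by 1.23, with values of 8.92, 8.81, 8.77 and 8.37 in Xb130-/- mice, against 9.70, 10.03, 9.96 and 10.08 in Xb130+/+ mice. Its groups did not overlap (SE 0.10, adjusted p = 1.02e-07 from limma). Among 28 partners of XB130 and genes of phosphoinositide 3-kinase signaling, Src, the tyrosine kinase known to phosphorylate XB130, was 0.29 higher, Irs2 0.57, Sh3pxd2b 0.57 and Ret 0.40, and Foxo1 fell by 0.27. In the vascular growth list (37 genes) 2 were higher (5.41%) and 4 lower (10.8%, against 3.28% of all genes). The endothelial genes Esm1 and Robo4 were lower (-0.74 and -0.54), while blood endothelium markers averaged 10.583 to 10.864 in Xb130-/- mice and 10.688 to 10.93 in Xb130+/+ mice.

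Cytoskeletal genes with higher values included microtubule genes known from neurons. Of 53 genes for microtubules and kinesins, 9 were higher (17%, against 4.17% of all genes) and 1 lower (1.89%). Dclk1, a microtubule-binding kinase, was at 9.23, 9.39, 9.41 and 9.39 in Xb130-/- mice, against 7.57, 7.63, 7.93 and 8.13 in Xb130+/+ mice, a difference of 1.54 (SE 0.12, adjusted p = 5.6e-08 from limma). Dpysl5, a collapsin response mediator protein, was 1.51 higher and the tubulin Tubb2b 1.02 higher, and the kinesin Kif1a was 1.60 higher but is not in the set free of thymocyte-linked spread. Schwann cell and nerve markers averaged 7.446 to 7.747 in Xb130-/- mice and 7.524 to 7.711 in Xb130+/+ mice. Of the 11, 1 was higher (9.09%) and 2 lower (18.2%, against 3.28% of all genes). Of 85 actin-binding and myosin genes, 12 were higher (14.1%) and 5 lower (5.88%). Apart from Myo3b, the largest were the increases of Synpo, which bundles actin (0.70), of the tropomyosin Tpm1 (0.63) and of Myo16 (0.56).

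Matrix glycoproteins were called higher in 11 of 63 cases (17.5%, against 4.17% of all genes) and lower in 3. Proteoglycan genes were higher in 12 of 79 cases (15.2%) and lower in 2, matrix proteases and their inhibitors higher in 10 of 66 (15.2%) and lower in 1, and collagens higher in 3 of 44 (6.82%) and lower in 0. Tgfbi, a matrix protein induced by TGF-beta, was at 12.08, 12.35, 12.32 and 12.24 in Xb130-/- mice, against 11.13, 11.12, 11.26 and 11.50 in Xb130+/+ mice, a difference of 0.99 (SE 0.10, adjusted p = 1.37e-06 from limma). Ccn2, the connective tissue growth factor, was 0.73 higher, the laminin chain Lamc3 fell by 0.88, and Hs3st3a1, which modifies heparan sulfate, was 1.44 higher. Timp1, an inhibitor of matrix metalloproteases, was 1.04 higher and the lysyl oxidase-like gene Loxl4 1.20. The collagen-binding integrin Itga2 was at 9.04, 8.81, 9.37 and 9.46 in Xb130-/- mice, against 6.77, 7.04, 7.37 and 8.0 in Xb130+/+ mice, a difference of 1.88 (SE 0.24, adjusted p = 2.46e-05 from limma). Fibroblast markers averaged 10.823 to 11.097 in Xb130-/- mice and 10.723 to 10.926 in Xb130+/+ mice. Of the 12, 1 was higher (8.33%) and 1 lower (8.33%, against 3.28% of all genes). Pericyte and smooth muscle markers averaged 9.323 to 9.757 in Xb130-/- mice and 9.226 to 9.573 in Xb130+/+ mice, with 3 of 14 higher (21.4%). Junction genes gave both directions, with the claudin Cldn6 1.39 higher and Cldn10 lower (-1.12).

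Genes of the surface and secretion were also called in both directions. Of 88 potassium channel genes, 10 were higher (11.4%, against 4.17% of all genes) and 3 lower (3.41%, against 3.28%), led by Kcne1 (2.05) and Kcnj13, an inward rectifier of epithelia (1.99). Of 93 sodium, calcium and chloride channel genes, 12 were higher (12.9%) and 2 lower (2.15%), with Cacna2d2, a calcium channel subunit, 1.21 higher, the cation channel Trpv4 1.18 and the chloride channel Ano1 0.81. Among 53 genes of carbonic anhydrases and of acid and water transport, 4 were higher (7.55%) and 5 lower (9.43%). Car15, another membrane-bound carbonic anhydrase, was 1.90 higher, opposite to Car4, and the water channels Aqp5 and Aqp3 were 1.14 and 1.05 higher. Glycosylation enzymes were higher in 11 of 88 cases (12.5%) and lower in 4 (4.55%), with the sialyltransferases St8sia2 and St6galnac1 1.62 and 1.54 higher. Among keratins and mucins (116 genes), 6 were higher (5.17%) and 2 lower (1.72%), so the share of higher genes was near that over all genes. The membrane mucins Muc4, Muc1 and Muc20 were 1.80, 1.35 and 1.29 higher.

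Several lists had at most 3 called genes, which in a small list can be a share above that over all genes. Ribosomal protein genes had 0 of 60 called. Unfolded protein response genes had 0 of 36 higher and 2 lower (5.56%, against 3.28% of all genes). Among them Derl3, which helps export misfolded proteins from the endoplasmic reticulum, differed by -0.77 on the log2 scale. Heat shock genes had 0 of 22 higher and 3 lower (13.6%, against 3.28%), the small heat shock proteins Hspb7, Hspb1 and Cryab. The mean of the heat shock list was 9.502 to 9.687 in Xb130-/- mice and 9.724 to 9.817 in Xb130+/+ mice, without overlap. Cell cycle genes had a median of 0.5 and 3 of 83 called, all 3 with overlapping groups and none free of thymocyte-linked spread. Their list mean was 8.243 to 9.135 in Xb130-/- mice and 7.826 to 8.946 in Xb130+/+ mice, and its lowest Xb130-/- mouse (LH7705) and highest Xb130+/+ mouse (LH7710) were those with the lowest and the highest thymocyte mean of their genotype. Of 22 cholesterol synthesis genes, 2 were higher (9.09%, against 4.17% of all genes) and 0 lower.

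Most genes of the set free of thymocyte-linked spread kept their direction at the later ages, which share no mice with W2. Arrays of all ages gave each gene a common spread and a common thymocyte slope, so calls at these ages were not independent. Of all genes, 5.08% were called higher and 4.35% lower at W4, and 9.42% higher and 10.5% lower at W12. Of the 707 higher genes, 495 (70.0%) were called higher at W4, 505 (71.4%) at W12 and 414 at both, while 0 at W4 and 6 at W12 were called lower. Of the 421 lower genes, 229 (54.4%) were called lower at W4, 231 (54.9%) at W12 and 174 at both, while 2 and 11 were called higher. At W2, W4 and W12 the higher genes had median differences of 0.56, 0.46 and 0.46, and the lower genes -0.47, -0.32 and -0.28. Genes picked at W2 for a large difference have their W2 values raised by the choice. The W2 difference itself differed from that at W12 in 101 of the 707 and 44 of the 421 genes, and from that at W4 in 2 and 3. Of all 23185 genes, 526 passed the test against W12 and 8 that against W4.

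**Figure D5:**
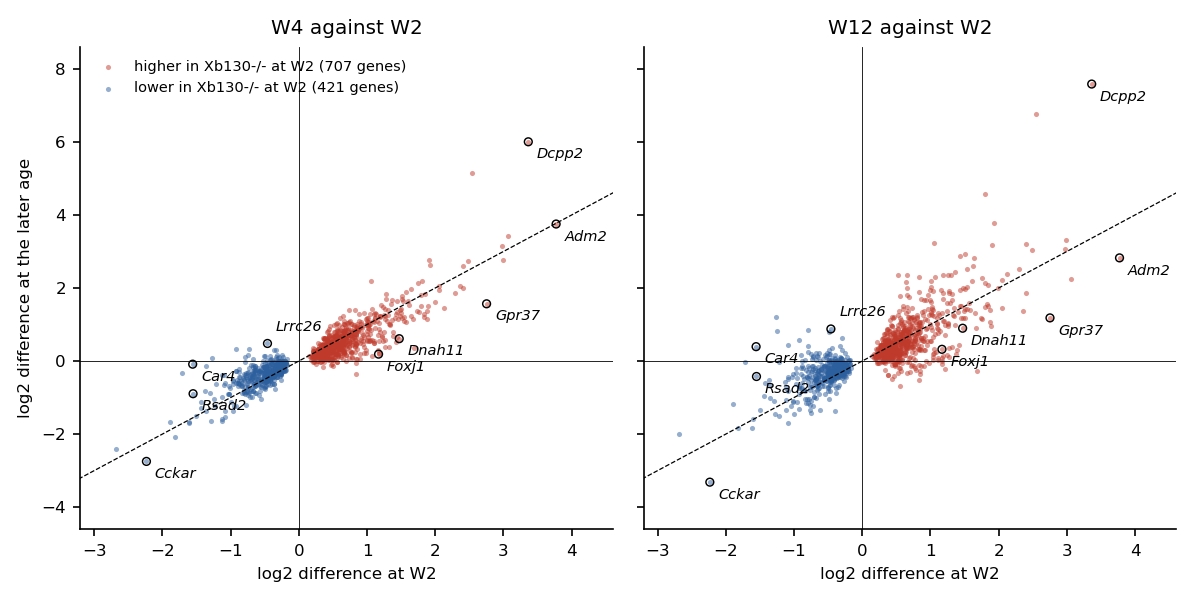
Log2 difference (Xb130-/- minus Xb130+/+) at W4 (left) and at W12 (right) against that at W2 for the 707 higher and 421 lower genes free of thymocyte-linked spread, each point 1 gene, with the line of equal differences dashed. Dcpp2 lies above the line at W12 (7.59 against 3.37 at W2), and Gpr37 below it (1.18 against 2.75).

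Few genes had a W2 difference beyond those at both later ages. The test against the W4 difference alone was passed by 8 of all 23185 genes, in either direction. The W2 difference lay above that at both later ages, by a test against each, in 3 genes (0.0129% of all genes), of which Dnah11 and Foxj1 were called at W2. The differences of Foxj1 were 1.17, 0.19 and 0.32 at the 3 ages, and those of Dnah11 were 1.47, 0.61 and 0.90. It lay below that at both later ages in 5 genes (0.0216%), of which Car4, Gm15998, Krtap17-1 and Lrrc26 were called at W2, Krtap17-1 outside the set free of thymocyte-linked spread. Car4 differed by -1.55 at W2, -0.08 at W4 and 0.40 at W12 (adjusted p = 0.000792 against W4 and 2.62e-06 against W12 from limma). In Xb130-/- mice its mean was 9.14, 10.58 and 11.37 at the 3 ages, against 10.70, 10.67 and 10.98 in Xb130+/+ mice. The count of 3 was 0 without LH7706 or LH7709 and 1 without LH7707, LH7708 or LH7711, and the count of 5 was 2 without LH7706 and 3 without LH7708, LH7709 or LH7711. Against W12 alone, Gpr37 was 1.57 at W4 and 1.18 at W12, the value at W12 below its W2 difference (adjusted p = 0.00278 from limma), and Rsad2 was -0.89 and -0.42, less negative than at W2 (adjusted p = 0.0278 from limma). Rtp4, Irf7 and Xaf1 also differed between W2 and W12, with differences of 0.16, 0.23 and 0.36 at W12. Cckar showed -2.23, -2.75 and -3.32 at the 3 ages, and Adm2 3.77, 3.75 and 2.83.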

How the data were processed

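RNA of 24 whole thyroids (4 male mice per genotype and age) was hybridized to 1 array each, and the 8 arrays of W2 carry the comparison. The authors made the deposited log2 values from probe intensities by robust multiarray average with the R package oligo (version not given in the sources used here), with quantile normalization across all arrays. Groups come from the sample labels, which give no batch, and p-values measure only the spread between these mice. The 2021 of 25206 probe sets that carry no gene symbol entered no gene test, and gene numbers were matched to RefSeq (GRCm38.p6), whose order gave the neighbours.

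The fit of limma 3.58.1 (R 4.3.3) had 1 mean for each genotype at each age over all 24 arrays, with 18 residual and 2.85 prior degrees of freedom and two-sided p-values adjusted by Benjamini-Hochberg over 23185 genes. The paper names a false discovery rate and no test. A second fit added the mean of 24 thymocyte markers. Members and lists (46 process and 20 marker lists) were chosen with earlier results of these data known. Named genes are Afap1l2, the 15 largest increases and decreases free of thymocyte-linked spread without overlap, up to 4 called members of each list, all hormone synthesis genes, called neighbours, genes of the age comparison and 4 energy genes. The genes from Dlk1 to Dio3, the imprinted, mast cell and cilia genes and further list members were chosen after their values were seen.

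On simulated data with 200 changed genes for this comparison among 23185, 66% of changes of 0.5 and 89% of changes of 1 were recovered, with 5 unchanged genes among 160 called. Alternatives were other fits, filters and scalings, a fold threshold, marker means as covariates, and each W2 mouse left out.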

Additional observations from a re-analysis of the deposited data

Results flagged for a closer look

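In each group of 4 mice at W2, the mouse farthest from the others was sought for the 180 genes named in the text. Dixon's ratio was used, the gap to the nearest mouse over the whole range. List means were tested for thyrocyte, thymocyte, interferon-response, neutrophil and mast cell, airway and esophageal, skeletal muscle and adipocyte genes. The mean of the 26 called transcripts from Dlk1 to Dio3 was also tested, and the other list means were not. Of 376 groups of values, 17 passed the 95% critical value (4.52%), and chance flags about 1 in 20. Among Xb130-/- mice, 1 lay far below the other 3 in Aqp5 (ratio 0.837, LH7711 at 11.33 and the other 3 between 11.59 and 11.64), Dclk1 (ratio 0.896, LH7705 at 9.23 and the other 3 between 9.39 and 9.41) and Duox2 (ratio 0.926, LH7711 at 9.05 and the other 3 between 9.27 and 9.28). The same was seen in Mir377 (ratio 0.934, LH7707 at 6.12 and the other 3 between 6.96 and 7.01) and Tekt1 (ratio 0.862, LH7705 at 11.51 and the other 3 between 11.79 and 11.84). Among Xb130-/- mice, 1 lay far above the other 3 in Igf2 (ratio 0.831, LH7711 at 11.16 and the other 3 between 10.27 and 10.42), Pde4d (ratio 0.920, LH7707 at 9.85 and the other 3 between 9.75 and 9.76) and Phlda2 (ratio 0.860, LH7709 at 7.01 and the other 3 between 6.78 and 6.81). The same was seen in Src (ratio 0.887, LH7709 at 10.41 and the other 3 between 10.27 and 10.28). Among Xb130+/+ mice, 1 lay far below the other 3 in Ccl11 (ratio 0.836, LH7710 at 9.01 and the other 3 between 9.29 and 9.35), Foxo1 (ratio 0.837, LH7704 at 10.28 and the other 3 between 10.34 and 10.35) and Fzd1 (ratio 0.944, LH7706 at 9.56 and the other 3 between 9.96 and 9.99). The same was seen in Kcne1 (ratio 0.837, LH7708 at 5.99 and the other 3 between 6.45 and 6.54) and Klf9 (ratio 0.879, LH7710 at 11.45 and the other 3 between 11.80 and 11.85). Among Xb130+/+ mice, 1 lay far above the other 3 in Fcer1a (ratio 0.965, LH7708 at 3.46 and the other 3 between 3.25 and 3.26), Gbp7 (ratio 0.866, LH7710 at 9.42 and the other 3 between 9.22 and 9.25) and Myo16 (ratio 0.909, LH7710 at 5.45 and the other 3 between 5.12 and 5.15).

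The genotype difference at W2 differed from that at a later age, by a test of that difference within the same fit (adjusted p under 0.05 from limma), in 38 of the genes named in the text. Against W4, the W2 difference minus the W4 difference was positive for Dnah11 (0.86) and Foxj1 (0.98) and negative for Car4 (-1.47), Duoxa1 (-1.22), Gm15998 (-1.05), Krtap17-1 (-2.01) and Lrrc26 (-0.94). Against W12 it was positive for the transcripts of the Dlk1 to Dio3 region DQ267100 (1.15), Meg3 (1.12), Mir300 (1.97), Mir369 (1.18), Mir377 (1.08), Mir485 (1.08), Mirg (0.73) and Rian (1.02), and for Aqp3 (0.93), Cldn6 (1.07), Cxcl11 (1.35), Dnah11 (0.57), Foxj1 (0.85), Gpr37 (1.57), Il33 (1.01) and Plagl1 (0.98). It was negative for genes lower in Xb130-/- mice at W2, Car4 (-1.95), Esm1 (-0.95), Gm15998 (-0.83), Irf7 (-0.74), Krtap17-1 (-2.99), Lrrc26 (-1.34), Ms4a1 (-1.32), Robo4 (-0.71), Rsad2 (-1.13), Rtp4 (-1.06) and Xaf1 (-0.80). It was also negative for genes with a positive W2 difference, Ano1 (-0.47), Bcat1 (-1.85), Dcpp1 (-4.21), Dcpp2 (-4.22), Duox1 (-1.59), Duoxa1 (-1.67), Dusp1 (-0.84), Hdc (-0.77), Slc1a1 (-1.05), Slc34a2 (-2.78) and Tgfbi (-0.95), whose difference was larger at W12.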

How the results depend on the processing

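Of the 166 called genes named in the report and this section, none changed direction in the alternatives that tested it (154 of the 166 were tested with dim genes left out, and all 166 otherwise), and the number that lost the call was 0 to 4 under other variance models, array weights, probe sets and scalings of the arrays, 10 with the thymocyte covariate, 34 with a fold change of at least 1.5, 64 with thymocyte, muscle and adipocyte means as covariates, 95 with LH7705 as the only Xb130-/- mouse, 20 with the W2 arrays fitted alone, and 7 to 19 when 1 mouse was left out. Afap1l2 kept its call throughout. The 966 higher and 760 lower genes became 392 and 212 with a fold change of at least 1.5, 343 and 153 with thymocyte, muscle and adipocyte means as covariates, and 172 and 117 with LH7705 as the only Xb130-/- mouse, whose spread was then assumed to be that of the other groups. Lower genes were 385 with the W2 arrays alone and 1268 with array weights. Leaving out each mouse gave 706 to 1189 higher and 502 to 1003 lower genes. The 707 higher and 421 lower genes free of thymocyte-linked spread became 105 and 31 with the W2 arrays alone, 330 and 149 with the fold threshold, 310 and 122 with 3 covariates and 158 and 82 with LH7705 alone, and 552 to 809 and 275 to 551 without 1 mouse. Genes with a W2 difference above that at both later ages numbered 5 with array weights, 0 with LH7705 alone and 0 to 3 without 1 mouse, and those below numbered 3 with the thymocyte covariate, 0 with LH7705 alone and 2 to 5 without 1 mouse. The cause of these shifts was not tested, apart from the fold threshold and the smaller numbers of mice, which lower counts by construction.

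For lists, the alternatives were added after the data were seen. The 22 lower interferon-response genes became 9 with the fold threshold, 6 with 3 covariates, 2 with LH7705 alone and 14 to 22 without 1 mouse. The 13 higher immediate-early genes became 7 with the W2 arrays alone, 4 with the fold threshold, 8 with the thymocyte covariate, 1 with 3 covariates, 0 with LH7705 alone and 4 to 14 without 1 mouse. The 26 transcripts from Dlk1 to Dio3 became 11 once dim genes (those in the lowest 30% by mean) were left out, which removed 15 of them from the test, 13 with 3 covariates, 12 with LH7705 alone and 19 to 28 without 1 mouse. The 7 higher mast cell genes became 4 with the fold threshold, 4 with 3 covariates, 3 with LH7705 alone and 5 to 8 without 1 mouse. No paired analysis was possible because the labels give no replicate numbers shared between the genotypes. The background correction could not be varied, signal over background is not known per probe set, and 4 mice per genotype limit the size of difference that can be called.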

Other observations

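Transporter and enzyme genes outside the lists described so far gave further differences at W2. Bcat1, the cytosolic aminotransferase of branched-chain amino acids, was at 8.70, 8.48, 8.92 and 8.38 in Xb130-/- mice, against 6.49, 6.65, 6.88 and 6.74 in Xb130+/+ mice, a difference of 1.93 (SE 0.24, adjusted p = 1.6e-05 from limma). Slc34a2, a sodium phosphate cotransporter of epithelia, was 1.80 higher and Slc1a1, a glutamate transporter, 1.31, while Trpv6, an epithelial calcium channel, fell by 0.56. Slc6a4, the serotonin transporter, was 2.04 higher and is not in the set free of thymocyte-linked spread. Of 65 amino acid and peptide transporter genes, 8 were higher (12.3%, against 4.17% of all genes) and 3 lower (4.62%, against 3.28%). Of 28 genes of vitamin D, calcium and phosphate handling, 4 were higher (14.3%) and 2 lower (7.14%).

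Of 127 chemokine and cytokine genes, 12 were higher (9.45%, against 4.17% of all genes) and 5 lower (3.94%, against 3.28%). Il33, an alarmin of stromal and epithelial cells, was 0.71 higher, and Ccl11, the chemokine eotaxin, fell by 0.62. Of 9 B cell markers, 0 were higher and 2 lower (22.2%, against 3.28%). These 2 were Cd79b at -0.48 and Ms4a1 at -0.80, the second with overlapping groups and not in the set free of thymocyte-linked spread. The list averaged 7.241 to 7.495 in Xb130-/- mice and 7.502 to 7.859 in Xb130+/+ mice. On chromosome 12, 9.02% of measured genes were in the set free of thymocyte-linked spread, and 7.19% without the transcripts from Dlk1 to Dio3, where 4.87% of all genes were. This count by chromosome was looked at after the values were seen and carries no test.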
